A study of Saccharomyces cerevisiae with 2 samples.

Results

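Of 38 yeast genes that make phosphoribosyl pyrophosphate (PRPP), purine nucleotides or pyrimidine nucleotides, or take up and salvage their bases, 35 had a deletion strain with a ratio on both arrays, out of 5219 such strains in all. The members were taken by gene symbol from the platform's annotation: 5 PRS genes, 17 genes of the purine arm and 16 of the pyrimidine arm. PRS2, IMD2 and FUR1 had 0 probes under their symbols and were not analysed here, which left 4, 16 and 15 strains. The study addresses synthetic haploinsufficiency with TUB1, the major alpha-tubulin gene: whether loss of 1 copy of another gene alters the recovery of diploids that also lose 1 copy of TUB1. All cells came from a pool of 5896 haploid-convertible Saccharomyces cerevisiae diploids, each heterozygous for a deletion of a different gene and marked by an upstream and a downstream tag, short DNA barcodes that are particular to the strain. The tub1D::URA3 cassette went into one pool and the ura3D::URA3 cassette into the control pool, so that cells of either pool carried a URA3 cassette, and cells of the tub1 pool lacked 1 copy of TUB1 beside 1 copy of their own gene. Both pools were selected at 30 °C for 2 days on medium without uracil (SC-Ura).

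PRPP is an activated ribose 5-phosphate. Cells use it to start purine synthesis, to turn orotate into a pyrimidine nucleotide, to salvage free bases, and to make histidine, tryptophan and NAD. Purines are built stepwise on PRPP up to IMP, which is then turned into AMP or GMP, whereas the pyrimidine ring is closed first and joined to PRPP afterwards. Without uracil in the medium, yeast must make its pyrimidines de novo. The strains compared here still carried 1 copy of each gene, and the requirement for uracil synthesis applied to both pools.

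Two-colour tag arrays were hybridised with control tags in Cy5 and tub1 tags in Cy3. The n = 2 arrays are experiments 1 and 2 of 1 group with the same dye orientation, and nothing in the labels says whether they were separate transformations. The limma p-values therefore rest only on spread between these arrays, shared in part across strains. In fits that keep both tags they also rest on spread between tags. They may not cover the spread between transformations. The files give 20001 values on array 1 and 20007 on array 2. They hold no spot brightness, so the precision behind a value is known only from repeat spots, tags and arrays. The TUB1 strain, which would show the direction of the ratio, held 0 of 4 tag values. Scanner programs of this kind usually divide red by green, so with these dyes a positive value likely stands for control over tub1, that is, fewer tags in the tub1 pool. Because this is not settled, ratios are called positive or negative. The strain lacking 1 copy of TUB3, the minor alpha-tubulin gene, stood at 4.22 ± 0.32 (SD, n = 2). A tag ratio joins the yield of transformants and their growth, which cannot be told apart here. All ratios are log2, keep their deposited sign and are centred on the median of each array and tag set, and a strain's value on an array is the mean of its 2 tags.

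The nucleotide synthesis strains as a whole lay near the middle of the pool, and the PRPP synthetases were the arm with the most positive median. The median ratio of all 35 strains was 0.06 (0.10 on array 1, -0.01 on array 2), against -0.09 over all 5219 strains. Without centring the member median was -0.02, but all strains then moved too, by -0.12 on array 1 and -0.04 on array 2. With centring the median was 0.39 for the 4 PRPP synthetase strains, -0.12 for the 16 purine strains and 0.09 for the 15 pyrimidine strains. On array 1 these arm medians were 0.37, -0.14 and 0.16, and on array 2 they were 0.42, -0.05 and 0.08. The order of the purine and pyrimidine arms is not firm, since the gap was small with either tag set. With the first tags alone their medians were 0.05 and 0.08, and with the second tags alone 0.09 and 0.11. The range of single strains ran from -1.73 for ADE8 to 1.14 for PRS3.

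On both arrays the ratio was positive for 14 of 35 members, where 32.7% of all strains were so, and negative for 12 of 35, where 41.7% of all strains were so. By arm, 3 PRPP synthetase strains were positive and 1 negative, 4 purine strains were positive and 7 negative, and 7 pyrimidine strains were positive and 4 negative. The other 9 members changed sign between arrays. Agreement of all 4 tag values (2 tags on 2 arrays) is a stricter count. It held on the positive side for 11 of 35 members, against 20.4% of all strains with 4 values, and on the negative side for 4 of 35, against 20.1%. These 11 were PRS3, PRS4, PRS5, ADE4, ADE12, ADE17, URA8, URA10, FUI1, CDC8 and YNK1, and the 4 were IMD3, IMD4, URA2 and DUT1.

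**Figure D1:**
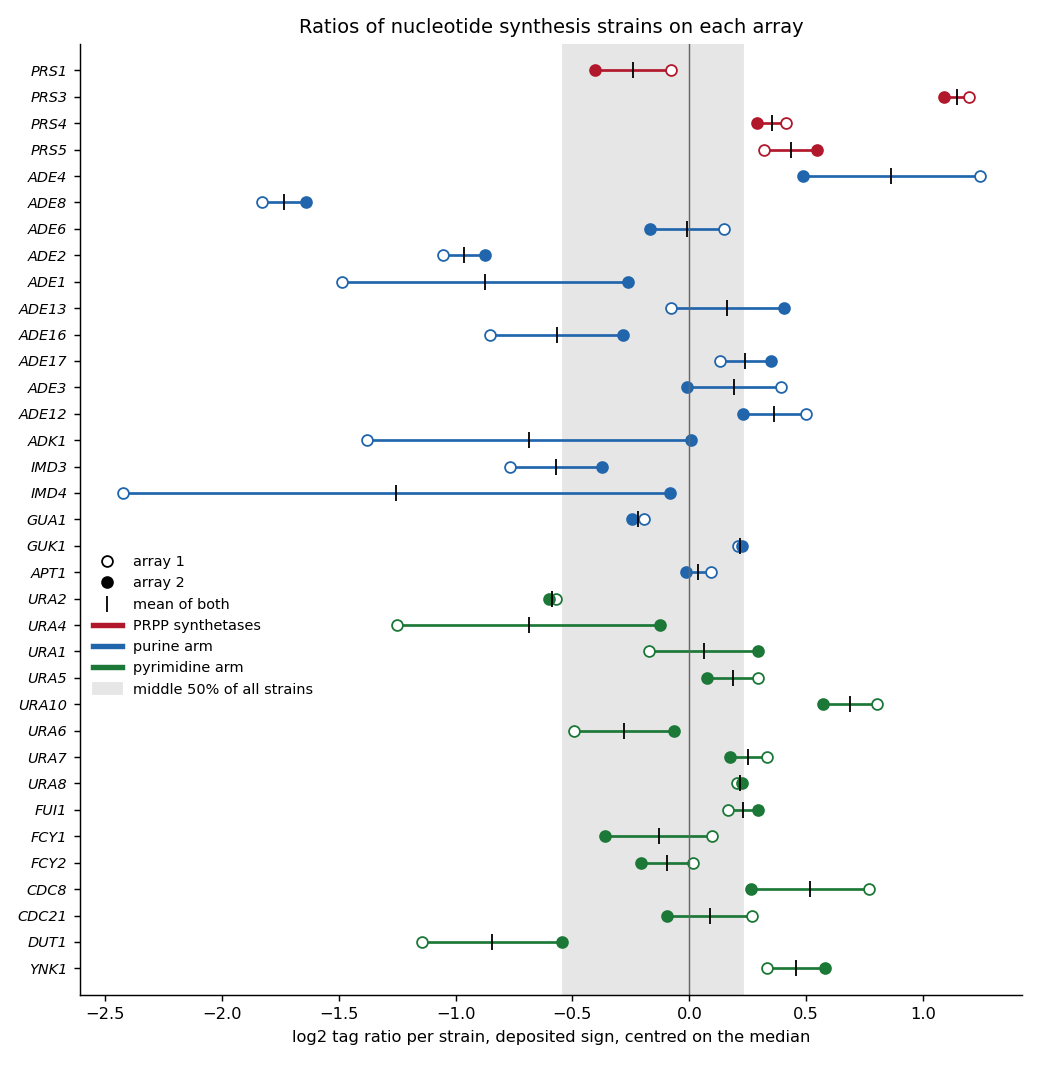
Strain ratios of the 35 nucleotide synthesis strains (horizontal axis, log2, deposited sign, centred) with array 1 as open circles, array 2 as filled circles and the mean as a tick; colours mark the arms and the grey band the middle 50% of all strains (-0.54 to 0.23). PRS3 stands right of the band on both arrays and ADE8 left of it on both, while ADE1, ADK1, IMD4 and URA4 are far left on array 1 only.

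No member passed the test across all strains. With limma, 0 of 35 members had an adjusted p under 0.05 in either direction, as was so for 0% of all strains, and the lowest adjusted p among members was 0.229, which several of them share. At an unadjusted p under 0.05 limma gave 2 positive members, PRS3 and URA10, where 9.12% of all strains were positive at that level. It gave 4 negative members, ADE8, ADE2, URA2 and DUT1, where 11.7% were negative. A further limma fit kept both tags and took the array as a random block, which treats the tags of a strain as further measurements. It called PRS3 (limma adjusted p 0.0356) and URA10 (limma adjusted p 0.0420). These are 5.71% of the members, against 6.71% of all strains called positive in that fit, and 0 members were called negative, against 3.18% of all strains. Those shares do not set the members apart from the pool. With the tag set as the block, 0 members were called, and PRS3 had an adjusted p of 0.121.

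PRPP synthetase makes PRPP from ribose 5-phosphate and ATP. Yeast encodes it in the paralogs PRS1 to PRS5, whose products act in complexes, Prs1 with Prs3 being a major one. The strain lacking 1 copy of PRS3 (YHL011C, chromosome VIII) had the most positive ratio of all members. Its ratio was 1.20 on array 1 and 1.09 on array 2, with a mean of 1.14 ± 0.08 (SD, n = 2), or 2.21-fold. It ranked 34 from the top among all 5219 strains, and 99.4% of strains had a lower mean. It was the 1 member at least 2-fold positive on both arrays, as were 0.728% of all strains.

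The positive sign of PRS3 was shared by all of its spots. Each of its tags was printed as 6 spots, and these can be seen one by one. On array 1 the first tag gave 0.72 to 0.88 (median 0.81) and the second 1.54 to 1.65 (median 1.58). On array 2 the first tag gave 0.53 to 0.90 (median 0.72) and the second 1.30 to 1.67 (median 1.49). All spots of both tags were thus positive on both arrays, and the second tag was above the first on each array with no overlap, by 0.79 on array 1 and 0.77 on array 2.

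PRS5 and PRS4 were also positive in all 4 tag values, at a lower level. PRS5 (YOL061W, chromosome XV) had 0.32 on array 1 and 0.55 on array 2, with a mean of 0.43 ± 0.16. On array 1 its tags stood at 0.24 and 0.41, and on array 2 at 0.25 and 0.85, and of its 6 first-tag spots on array 2 the lowest was -0.17. PRS4 (YBL068W, chromosome II) had 0.41 and 0.29, with a mean of 0.35 ± 0.09, and its tag values ran from 0.03 to 0.55. The means were above those of 87.2% and 83.2% of strains. The limma adjusted p was 0.261 for PRS5 and 0.280 for PRS4.

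PRS1, whose product pairs with that of PRS3, had a negative mean. The PRS1 strain (YKL181W, chromosome XI) had -0.08 on array 1 and -0.40 on array 2, with a mean of -0.24 ± 0.23. On array 1 its tags stood at 0.31 and -0.47, and on array 2 at -0.24 and -0.56, so the first tag changed sign between arrays while the second was negative on both. The 6 spots of each tag lay close together on array 1, with an SD of 0.06 for the first tag and 0.03 for the second, so that its tags there differed by more than the scatter of their spots. PRS3 exceeded PRS1 by 1.28 on array 1 and by 1.49 on array 2, a mean difference of 1.38 ± 0.15. It exceeded PRS4 by 0.78 and 0.80, and PRS5 by 0.88 and 0.54. PRS4 and PRS5 did not differ beyond their spread, with a difference of -0.08 ± 0.25 that changed sign between arrays. In order of their means the PRS strains ran PRS3, PRS5, PRS4 and PRS1.

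**Figure D2:**
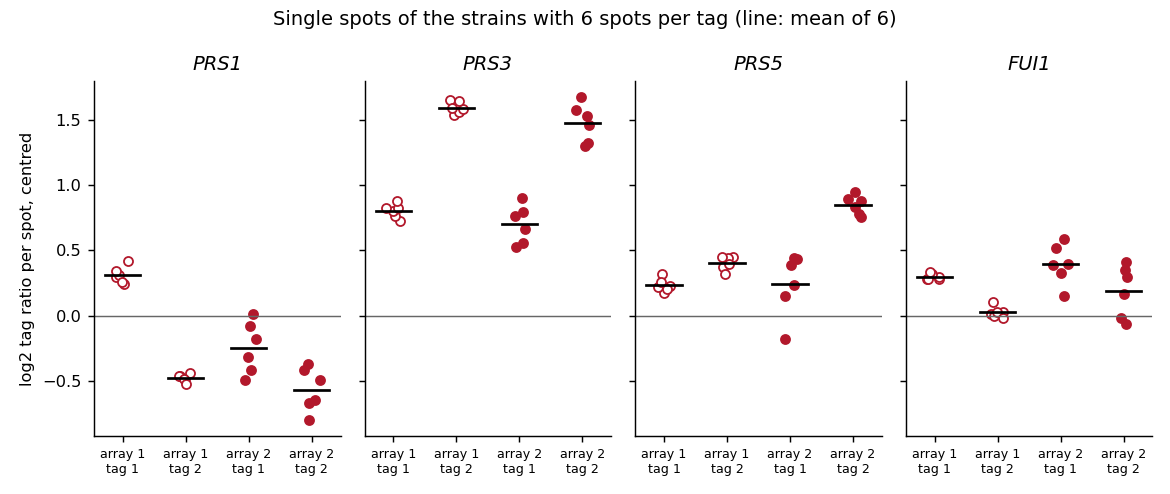
Log2 ratios of single spots (vertical axis, centred) for the 4 members with 6 spots per tag, PRS1, PRS3, PRS5 and FUI1, by array and tag; open circles are array 1, filled circles array 2, lines the mean of 6 spots. Every PRS3 spot lies between 0.53 and 1.67, and spots scatter more on array 2 than on array 1 in all 4 panels.

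In the purine arm the strain of the first committed step had the most positive mean. ADE4 (YMR300C, chromosome XIII) encodes the amidotransferase that joins the first nitrogen to PRPP. The ADE4 strain had 1.24 on array 1 and 0.48 on array 2, with a mean of 0.86 ± 0.54, above 97.9% of strains. Its 4 tag values were all positive, at 1.02 and 1.46 on array 1 and 0.64 and 0.33 on array 2. The difference between arrays, not that between tags, made up most of its error, and its limma adjusted p was 0.245.

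Across the steps towards IMP, ADE4 included, the strains had no shared direction. Of the 9 strains of this segment 2 were positive on both arrays, ADE4 and ADE17, against 32.7% of all strains. Another 4 were negative, against 41.7% of all strains, and 3 changed sign. The median of the 9 was -0.01. ADE6, which encodes the amidine-forming synthetase of the pathway, had -0.01 ± 0.22. ADE13, the adenylosuccinate lyase gene that serves both IMP and AMP synthesis, had 0.16 ± 0.34. ADE3, which encodes the C1-tetrahydrofolate synthase that supplies formyl groups, had 0.19 ± 0.28. The 4 negative strains were ADE8, ADE2, ADE1 and ADE16, and in each of them 1 tag carried the negative mean.

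ADE8 (YDR408C, chromosome IV), the glycinamide ribotide transformylase gene, had the lowest mean of all members at -1.73 ± 0.13. It was also the 1 member at least 2-fold negative on both arrays, as were 3.74% of all strains. Its first tag gave -4.52 on array 1 and -3.60 on array 2, whereas its second gave 0.87 and 0.32. The tags therefore disagreed in sign on both arrays, and the small SD between arrays does not show this. ADE2 (YOR128C, chromosome XV), the AIR carboxylase gene, averaged -0.96 ± 0.13, with a first tag of -2.52 and -1.47 and a second of 0.42 and -0.28 on arrays 1 and 2.

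ADE1 (YAR015W, chromosome I), the SAICAR synthetase gene, averaged -0.87 ± 0.86. Its first tag stood at 0.23 on array 1 and 0.07 on array 2, while its second tag was at -3.20 and -0.60. Second tags of chromosome I strains were low in general: over 78 such strains the median stood at -3.52 on array 1 and at -0.65 on array 2, against 0.02 and 0.00 over 5137 strains of other chromosomes. The second ADE1 tag thus had a value typical of its chromosome on both arrays; what sets these tags was not tested.

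ADE16 and ADE17 encode a pair of isozymes for the last steps to IMP. ADE17 (YMR120C, chromosome XIII) had 0.13 on array 1 and 0.35 on array 2, with a mean of 0.24 ± 0.15. Its 4 tag values were positive, from 0.05 to 0.49. ADE16 (YLR028C, chromosome XII) had -0.85 and -0.28, with a mean of -0.57 ± 0.40. ADE17 exceeded ADE16 by 0.98 on array 1 and 0.63 on array 2, but this rested on the second ADE16 tag, at -2.44 and -0.67, while the first ADE16 tag was at 0.73 and 0.10.

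From IMP, 3 of 4 measured strains of the GMP branch were negative on both arrays, against 41.7% of all strains, and 1 of these, GUA1, was positive with its first tag alone. IMP dehydrogenase, encoded by IMD2, IMD3 and IMD4, opens the GMP branch. IMD3 (YLR432W, chromosome XII) had -0.77 on array 1 and -0.37 on array 2, a mean of -0.57 ± 0.28 with 4 negative tag values between -1.31 and -0.22. IMD4 (YML056C, chromosome XIII) also had 4 negative tag values, but of very unequal size, with -0.91 and -3.94 on array 1 and -0.08 and -0.09 on array 2. Its mean of -1.25 ± 1.65 thus came almost wholly from array 1, and the order of IMD3 and IMD4 differed between arrays.

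GUA1, the GMP synthase gene, had -0.22 ± 0.04, from a first tag of 0.18 and 0.13 and a second of -0.57 and -0.62. GUK1, the guanylate kinase gene, had 0.22 ± 0.01, from tags of -0.11 and 0.53 on array 1 and of 0.18 and 0.27 on array 2. The median of this branch was -0.40, or -0.48 on array 1 and -0.17 on array 2. On the AMP side, ADE12, the adenylosuccinate synthase gene, had 0.36 ± 0.19 with 4 positive tag values. ADK1, the adenylate kinase gene, had -1.38 on array 1 and 0.01 on array 2, a mean of -0.69 ± 0.98. Its first tag was at -2.94 on array 1 and 0.00 on array 2, and its second at 0.18 and 0.01. The median of these 2 strains was -0.16 (-0.44 on array 1, 0.12 on array 2), and the difference between the branches was not tested. APT1, which encodes the adenine phosphoribosyltransferase of salvage, stood at 0.04 ± 0.08.

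In the pyrimidine arm, the strain of the first enzyme was negative and that of a minor orotate phosphoribosyltransferase was the most positive. URA2 (YJL130C, chromosome X) encodes the enzyme that carries the carbamoyl phosphate synthetase and aspartate transcarbamylase activities. It had -0.57 on array 1 and -0.60 on array 2, with a mean of -0.59 ± 0.02. Its tags stood at -0.20 and -0.94 (array 1) and at -0.41 and -0.79 (array 2), all negative, and 23.3% of strains had a lower mean. Its unadjusted limma p was 0.0284 and its adjusted p 0.229.

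URA4 (YLR420W, chromosome XII), the dihydroorotase gene, averaged -0.69 ± 0.80, with tags opposed in sign on both arrays: 0.32 and -2.82 on array 1, and 0.65 and -0.90 on array 2. URA1, the dihydroorotate dehydrogenase gene, had 0.06 ± 0.33. URA6, the UMP kinase gene, which is essential in haploids, had -0.28 ± 0.30.

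URA5 and URA10 encode the orotate phosphoribosyltransferases, which join the pyrimidine ring to PRPP, URA5 being the major form. The URA10 strain (YMR271C, chromosome XIII) had 0.80 on array 1 and 0.57 on array 2, with a mean of 0.69 ± 0.16, above 95.3% of strains. Its 4 tag values lay between 0.54 and 1.06. The URA5 strain (YML106W, chromosome XIII) had 0.29 and 0.08, with a mean of 0.19 ± 0.15, and its tags ran from -0.14 to 0.45. URA10 exceeded URA5 by 0.51 on array 1 and 0.49 on array 2, a difference of 0.50 ± 0.01. The small SD does not show that the gap was wider with the first tags. With these alone URA10 had 0.83 and URA5 -0.00292, and with the second tags alone they had 0.55 and 0.37.

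The CTP synthase genes URA7 and URA8 had means of nearly the same size. URA7, the major form, had 0.33 on array 1 and 0.17 on array 2, a mean of 0.25 ± 0.11. Its tags stood at 0.24 and 0.42 on array 1 and at -0.08 and 0.42 on array 2. URA8 had 0.20 and 0.23, a mean of 0.22 ± 0.02, and its 4 tag values spanned only 0.19 to 0.25. Their difference, URA8 minus URA7, was -0.04 ± 0.13 and changed sign between arrays.

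The 3 measured members of pyrimidine uptake and salvage had means between -0.13 and 0.23. FUI1, the uridine permease gene, had 0.16 on array 1 and 0.29 on array 2, a mean of 0.23 ± 0.09, and like PRS1, PRS3 and PRS5 it had 6 spots per tag. FCY1, the cytosine deaminase gene, had -0.13 ± 0.32 and FCY2, which encodes the purine-cytosine permease, had -0.10 ± 0.16. Both changed sign between arrays.

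Thymidylate synthesis strains were spread on both sides. CDC8 (YJR057W, chromosome X), the thymidylate kinase gene, had 0.77 on array 1 and 0.26 on array 2, with a mean of 0.52 ± 0.36 and 4 positive tag values from 0.19 to 0.90. CDC21, the thymidylate synthase gene, had 0.09 ± 0.26. DUT1 (YBR252W, chromosome II), which encodes the dUTPase that yields dUMP for thymidylate synthesis, had the lowest mean of the pyrimidine arm. It had -1.15 on array 1 and -0.55 on array 2, with a mean of -0.85 ± 0.42. This rested on its first tag, at -2.28 and -1.08, because the second tag was at -0.02 and -0.01. YNK1, the nucleoside diphosphate kinase gene, had 0.46 ± 0.18, with 4 positive tag values from 0.22 to 0.78.

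**Figure D3:**
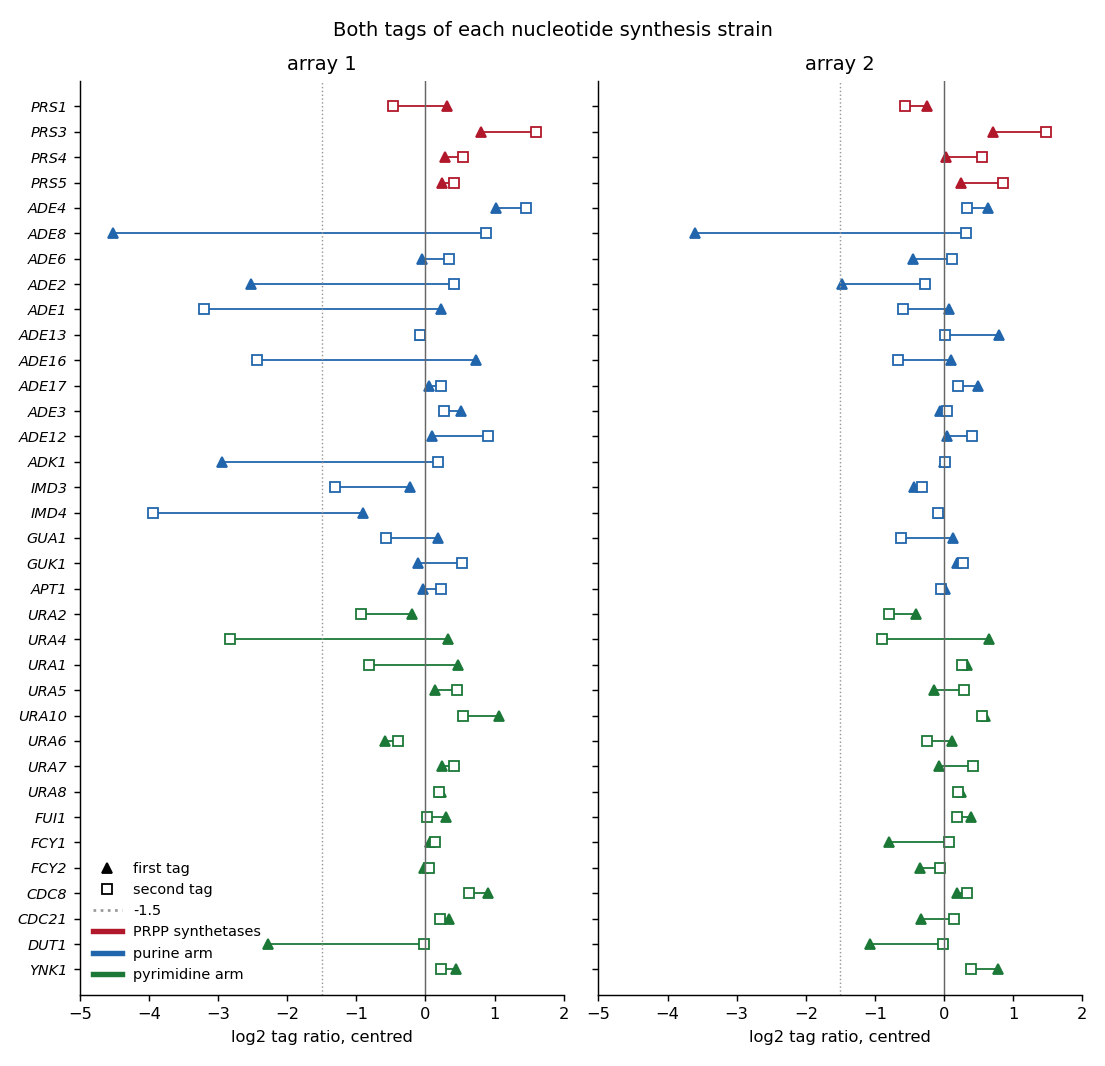
Both tags of each member on array 1 (left) and array 2 (right), as log2 ratio (horizontal axis, centred), with triangles for the first tag, squares for the second and a dotted line at -1.5; colours mark the arms. Long bars on array 1 belong to ADE8, ADE2, ADE1, ADE16, ADK1, IMD4, URA4 and DUT1, and of these only the ADE8 bar has an end under -1.5 on array 2.

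Most strongly negative means among the members rested on 1 low tag. On array 1, 8 of 70 member tags were at or under -1.5, or 11.4% against 14.6% of all tags, and each belonged to a different strain. On array 2 it was 1 of 70, or 1.43% against 3.91% of all tags. Tags of opposite sign that differed by more than 1.5 were found on array 1 in 6 of 35 members, against 14.5% of all strains, and on array 2 in 2 of 35, against 5.21%. The 6 were ADE8, ADE2, ADE1, ADE16, ADK1 and URA4, 5 of them in the purine arm. Their negative sign was not shared by the other tag on array 1, and what sets these low tags was not tested. No member had a spot at the smallest ratio in the data.

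**Figure D4:**
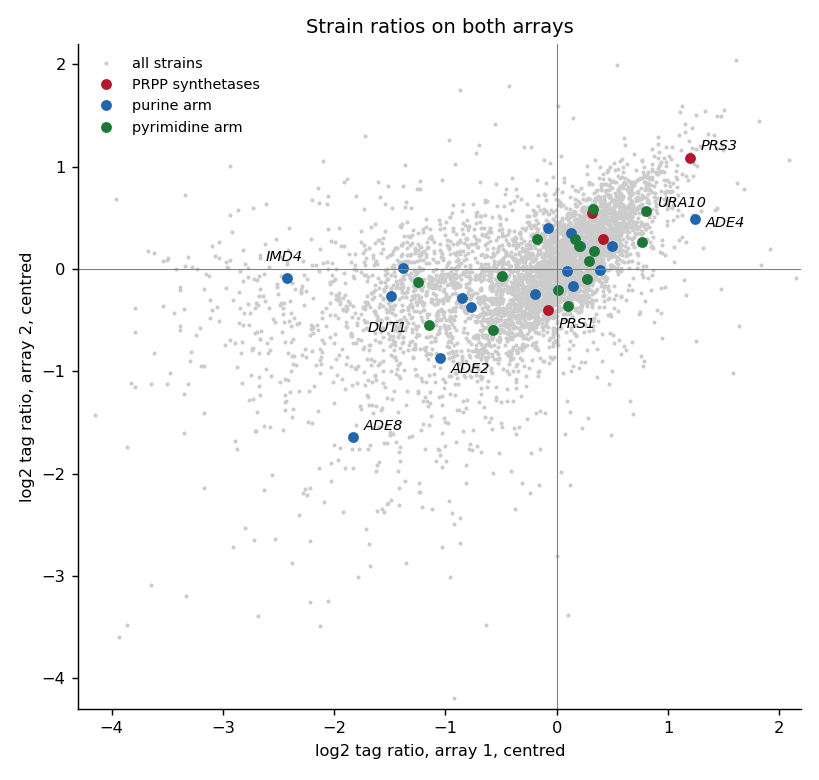
Strain ratio on array 1 (horizontal axis) against array 2 (vertical axis), log2 and centred, for all strains (grey; 14 lie outside the axes) and the members coloured by arm. PRS3 lies at the upper right and ADE8 at the lower left of the members, and IMD4 lies far left near 0 on array 2.

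Across the 35 members, Pearson's r between arrays was 0.686 and Spearman's rho 0.711, against 0.526 and 0.606 across all strains. These points share their arrays, dyes and tags, and the values are a description only. The median absolute difference between arrays was 0.27 for members and 0.28 for all strains.

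Of the members, 7 lie on chromosome XIII with TUB1. In the gene table of assembly R64, 21 genes lie between URA5 and TUB1, 30 between IMD4 and TUB1 and 68 between APT1 and TUB1. For ADE17, GUA1, URA10 and ADE4, on the other arm, the numbers were 234, 340, 399 and 431. The nearest member, URA5, had 0.19 ± 0.15 and the next, IMD4, had -1.25 ± 1.65, which array 2 did not share. The most distant of them, ADE4 and URA10, had the highest means of the purine and pyrimidine arms. The median of all 410 chromosome XIII strains was -0.20, against -0.09 for the other chromosomes. FCY2 was the 1 member on chromosome V with URA3, with 93 genes between them.

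Other genes of these pathways, 44 in all, gave 37 further strains. By limma 0 of these passed in either direction. The median was -0.19, with 10 of 37 positive on both arrays and 16 of 37 negative, against 32.7% and 41.7% of all strains. Other purine genes had a median of -0.04 (n = 12), with -0.16 on array 1 and 0.16 on array 2. Other pyrimidine genes had -0.70 (n = 5), with -0.52 on array 1 and -0.05 on array 2. Genes of ribose 5-phosphate supply had -0.21 (n = 10), with 0.03 and -0.05. Genes of one-carbon supply had -0.71 (n = 6), with -0.28 and -0.51. Ribonucleotide reductase genes had -0.04 (n = 4), with 0.05 on each array. In every list but other purine genes, the median of the strain means was thus lower than both array medians.

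The lowest of these was RKI1, the ribose 5-phosphate isomerase gene, whose product supplies the substrate of PRPP synthetase. It had -1.97 on array 1 and -1.87 on array 2, a mean of -1.92 ± 0.07, with 4 negative tag values from -3.14 to -0.60. It thus stood opposite in sign to PRS3, PRS4 and PRS5, but had the same sign as PRS1. The highest was PPR1, which encodes the transcription activator of pyrimidine synthesis genes, at 1.13 ± 0.18, but its tags on array 1 were 2.86 and -0.33. FUR4, the uracil permease gene, was negative in all 4 tag values with a mean of -0.70 ± 0.25. In the fit that kept both tags, with the array as block, limma gave an adjusted p of 0.0420 for RKI1, 0.0470 for FUR4 and 0.131 for PPR1. Thus 2 of 37 were called negative, against 3.18% of all strains, and with the tag set as block the limma adjusted p was 0.150 for RKI1 and 0.145 for FUR4. GND1, which encodes a 6-phosphogluconate dehydrogenase, had 0.60 ± 0.11 and was positive in all 4 tag values. RPE1, another gene of ribose 5-phosphate supply, was also positive in all 4, with 0.56 ± 0.05. Among the 10 strains of that list, which includes RKI1, 3 were positive on both arrays and 3 negative, against 32.7% and 41.7% of all strains.

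Of the 6 one-carbon strains, 5 were negative on both arrays, against 41.7% of all strains, and 0 positive. DFR1, counted among the 5, was near 0 at -0.04 on array 1 and -0.01 on array 2. In all 4 tag values 3 of the 6 were negative, against 20.1% of all strains. MIS1, a mitochondrial C1-tetrahydrofolate synthase gene, had -0.42 ± 0.03 with 4 negative tag values, while ADE3, its cytoplasmic counterpart among the members, had 0.19 ± 0.28. MTD1 and SHM1 averaged -1.22 ± 1.38 and -1.21 ± 1.26, and each rested on 1 tag on array 2, at -4.20 for MTD1 and -5.01 for SHM1. Ribonucleotide reductase strains ran from -0.27 ± 0.29 for RNR2 to 0.32 ± 0.14 for RNR4.

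**Figure D5:**
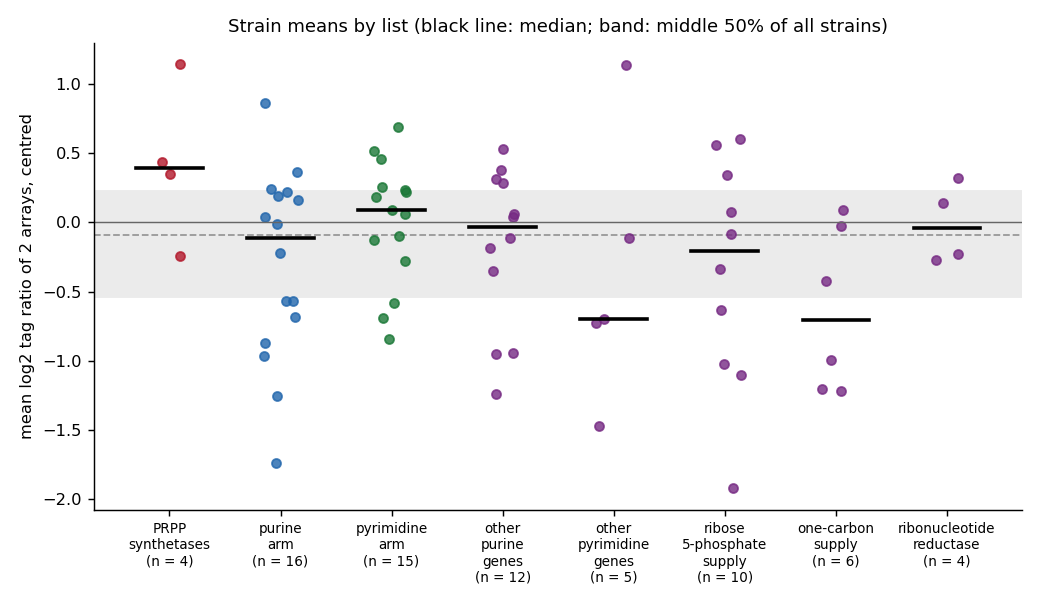
Mean log2 ratio of each strain over both arrays (vertical axis, centred) for the 3 arms of members and the 5 lists of other pathway genes; black lines are list medians, the grey band the middle 50% of all strains and the dashed line their median (-0.09). PRS3 and PPR1 are the highest points and RKI1 the lowest.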

How the data were processed

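Tags from genomic DNA of both pools were co-hybridised to Hopkins tag arrays, and images were read with GenePix 5.1, per the labels, which name total RNA as the molecule. What the authors deposited is a log2 ratio for each spot: 100% of 40008 were the log2 of a ratio within 0.001 of a hundredth. For the authors' background correction, normalization and ratio direction, the sources used here give nothing. Deposited medians were -0.12 (array 1) and -0.04 (array 2). A linear ratio of 1e+06, in 2 values, was treated as missing.

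Of 22575 probes, 18794 had 1 gene symbol, 0 several and 3781 none, and 18786 matched NCBI's R64 gene table, which served for names and gene order only because no build is named. Probes formed 2 tag sets, told apart by a fixed offset in probe number. Which set is upstream is unknown. In 781 strains tags had 6 spots, otherwise 1. Symbols with several tags a set (105) were left out. Spots were averaged, each array and tag set centred on its median, and both tags averaged. The 5219 strains measured on each array were tested against 0 with limma 3.58.1 in R 4.3.3 (intercept, eBayes, two-sided, Benjamini-Hochberg over all strains, threshold 0.05), with 1 residual degree of freedom a strain. The fit was run on simulated data, where calling every nonzero ratio was required only at an SD of 0.05. The median SD between the real arrays was 0.20 over all strains. Lists are given as counts and medians without a test. Tables and plots used Python 3.11.15, pandas 2.3.3 and matplotlib 3.10.9.

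The members and lists were chosen with earlier results of these data known. Every member is given. Tag values or their range are printed for the PRS genes, paralogs and the extremes of each arm. The same holds for members with 4 tag values of 1 sign and a mean at least 0.5 from 0. It also holds for members with tags of opposite sign over 1.5 apart. Others are named by their step. Tried as alternatives were no centring, quantile normalization, spot medians, leaving out values at the smallest ratio, each tag set or array alone, and other limma fits.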

Additional observations from a re-analysis of the deposited data

How the results depend on the processing

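The count of limma calls over all strains was 0 positive and 0 negative without centring, after quantile normalization, with spot medians, without values at the smallest ratio, with either tag set alone, without moderation and with robust eBayes. With the array as a random block it was 350 positive and 166 negative, 2 of them members (PRS3 and URA10), and with the tag set as the block 1 and 2, none a member. Both fits keep the tags as separate measurements and differ in the block; the cause of the difference in calls was not tested. Each ratio already sets the pools side by side on an array, and with 1 group no further pairing was possible. Without centring the medians were 0.31 for PRPP synthetases, -0.20 for purines, 0.00468 for pyrimidines and -0.0216 for all members, since all strains then moved by -0.12 on array 1 and -0.04 on array 2. After quantile normalization the purine median was -0.20. With the first tags alone it was 0.0506 and that of PRPP synthetases 0.20, and with the second tags alone 0.0911 and 0.59. With the median of 4 tag values, chosen after seeing the data, the purine median was -0.0207 and the pyrimidine median 0.21. With 1 array at a time the medians ran from 0.37 to 0.42 for PRPP synthetases, from -0.14 to -0.0498 for purines and from 0.0772 to 0.16 for pyrimidines. The cause of these shifts was not tested.

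Signs turned only with 1 tag set among the members that had 1 sign on both arrays. With the first tags alone PRS1 became 0.0352, ADE1 0.15, ADE16 0.42, GUA1 0.15, URA4 0.49 and URA5 -0.00292. With the second tags alone ADE8 became 0.59 and ADE2 0.0705. The sign of PRS3, ADE4, URA10, URA2, IMD3, IMD4, CDC8 and DUT1 was the same under every alternative run. For DUT1 and IMD4 this included values near 0, with -0.0154 for DUT1 with the second tags alone and -0.0842 for IMD4 on array 2 alone. With 2 arrays, spot brightness not used here and most tags printed once, weak spots could not be told from tags that differed between pools.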

Other observations

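Enzymes that consume PRPP were set side by side as a list chosen by function after the member values were seen, so the list has no test. Of 11 such genes 10 were measured, and their median ratio was 0.05, with 4 positive and 3 negative on both arrays, against 32.7% and 41.7% of all strains. HPT1, the hypoxanthine-guanine phosphoribosyltransferase gene of purine salvage, was positive in all 4 tag values (0.31 ± 0.23), as were ADE4 and URA10. XPT1, which acts on xanthine, had 0.06 ± 0.31 and HIS1, the first enzyme of histidine synthesis, had 0.02 ± 0.46.

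All 4 tag values were positive for 3 of these 10 strains, against 20.4% of all strains, and negative for 3, against 20.1%. The 3 negative strains are given here because of their values. TRP4, the anthranilate phosphoribosyltransferase gene, had -1.003 on array 1 and -0.58 on array 2, a mean of -0.79 ± 0.30. BNA6, the quinolinate phosphoribosyltransferase gene, had -0.58 and -1.02, a mean of -0.80 ± 0.31. NPT1, the nicotinate phosphoribosyltransferase gene, had -0.65 and -0.34, a mean of -0.49 ± 0.22. The limma adjusted p was 0.229 for TRP4 and BNA6 and 0.254 for NPT1.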
